A study of Mus musculus with 8 samples.

Results

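The metallothioneins Mt1 and Mt2, their transcription factor Mtf1 and 7 zinc transporters were compared between liver of WT mice and of mice labelled as knockouts (KO) of the copper ATPase Atp7b. The 10 genes (Mt1, Mt2, Mtf1, Slc30a1, Slc30a10, Slc39a4, Slc39a5, Slc39a8, Slc39a10 and Slc39a14) were picked by symbol from the 54232 genes of the count table, and all 10 had enough reads to be tested. Liver was taken at 6 months of age from mice of the WT genotype (4 libraries) and from mice labelled Atp7b KO (4 libraries). The sources used here do not give strain, sex, diet or the design of the Atp7b allele, and no treatment is named for either genotype. Whether the libraries come from 8 different animals is not stated either, and p-values therefore cover only the spread among these libraries, which may be technical.

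Metallothioneins are small cysteine-rich proteins that hold zinc and copper in the cytosol. MTF1 is a zinc finger protein that senses free zinc, binds short metal response elements in DNA and switches on the metallothionein genes. Transporters of the Slc30 (ZnT) family move zinc or manganese out of the cytosol, and those of the Slc39 (ZIP) family move metals into it. ATP7B loads copper onto ceruloplasmin and sends it into bile, and its loss in Wilson disease leaves copper in the liver.

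The promoters of Mt1, Mt2, Slc30a1 and Slc30a10 are shown because MTF1 acts through such DNA and because these genes moved by very different amounts. Sequences are from RefSeq on GRCm38.p6, the assembly of mm10, from 250 bases before to 30 bases after the start site, written along the gene. Capitals mark the metal response element core, searched as TGCACNC (A form) and TGCGCNC (G form) on both strands, so that a match on the opposite strand reads GNGTGCA or GNGCGCA here.
Mt1 (chr8:94178839-94179118, plus strand): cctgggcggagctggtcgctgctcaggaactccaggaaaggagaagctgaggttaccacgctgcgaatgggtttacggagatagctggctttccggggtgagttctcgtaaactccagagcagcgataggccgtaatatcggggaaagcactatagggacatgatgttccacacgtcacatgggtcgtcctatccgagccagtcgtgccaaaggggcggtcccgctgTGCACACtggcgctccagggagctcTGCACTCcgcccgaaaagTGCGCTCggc
Mt2 (chr8:94172368-94172647, plus strand): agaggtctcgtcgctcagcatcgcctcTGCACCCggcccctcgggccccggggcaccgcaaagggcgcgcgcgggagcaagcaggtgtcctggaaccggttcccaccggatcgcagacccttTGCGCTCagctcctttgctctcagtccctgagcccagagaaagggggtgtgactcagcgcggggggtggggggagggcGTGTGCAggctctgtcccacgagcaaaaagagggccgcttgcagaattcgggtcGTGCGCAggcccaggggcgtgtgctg
Slc30a1 (chr1:191906531-191906810, plus strand): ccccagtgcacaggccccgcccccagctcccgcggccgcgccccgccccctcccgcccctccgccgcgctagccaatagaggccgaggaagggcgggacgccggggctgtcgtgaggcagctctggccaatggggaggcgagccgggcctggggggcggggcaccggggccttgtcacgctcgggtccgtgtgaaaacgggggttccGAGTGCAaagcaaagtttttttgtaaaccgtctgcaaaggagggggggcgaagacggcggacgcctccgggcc
Slc30a10 (chr1:185454598-185454877, plus strand): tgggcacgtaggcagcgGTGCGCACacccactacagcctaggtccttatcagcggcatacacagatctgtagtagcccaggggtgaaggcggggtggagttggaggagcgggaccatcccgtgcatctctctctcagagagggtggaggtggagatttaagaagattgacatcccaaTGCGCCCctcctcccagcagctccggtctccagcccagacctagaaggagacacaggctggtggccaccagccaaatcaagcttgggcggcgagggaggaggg

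The core was matched at 3 places in the Mt1 promoter and at 4 places in that of Mt2. At least 3 places were found in 1.31% and at least 4 in 0.295% of 32851 promoters of the same length of 300 bases, which run to 50 bases after the start. Slc30a1 had matches at 2 places, 1 of them from base 31 to base 37 after its start and so beyond the printed stretch. Slc30a10 also had 2 places, of which the distant one matched on both strands at once, and at least 2 places were found in 6.14% of promoters. Of the 10 genes, 8 had a promoter in the table used, and Slc39a4 and Slc39a14 had none there. Mtf1 and both starts of Slc39a10 held no match, and Slc39a5 and Slc39a8 each held a match at 1 of their 2 starts. A match of at least 1 place was present in 25.7% of all promoters. Outside the 10 genes, the zinc transporter gene Slc30a4 also had 3 places, and it was not called below (log2 fold change -0.35). Csrp1, which rose, had 3 places at 1 start and 0 at the other. Whether the number of places goes with the change in level was not tested. The Mt2 stretch as printed ends at base 94172647, before the gene start of 94172664 given below, so start sites differ between annotations. Sites outside the windows were not searched. These letters describe the windows only and do not show that MTF1 binds there.

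**Figure D1:**
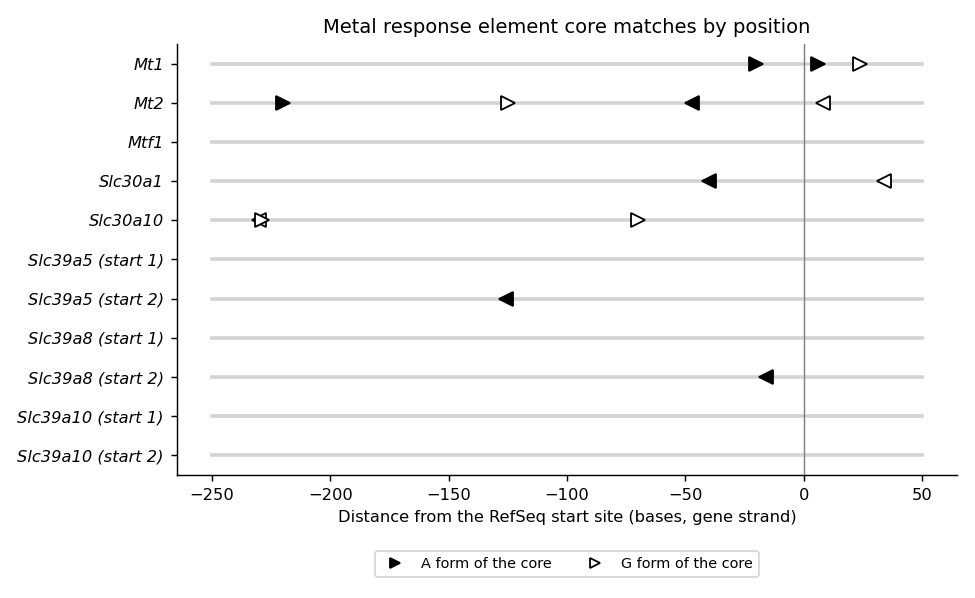
Position of each match to the metal response element core (triangles, filled for the A form and open for the G form, pointing right on the gene strand and left on the opposite strand) along the promoters of 8 genes, in bases from the RefSeq start site. Within these windows, Mt1 holds its 3 places close to the RefSeq start, Mt2 spreads 4 along the window, and Mtf1 and Slc39a10 hold none. Start sites in other annotations can differ.

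Library totals ran from 9880253 to 27530506 counts, and levels below are counts scaled to library size (CPM) with TMM factors. Genes with a count numbered 19726 to 23119 in WT libraries and 26082 to 27149 in KO libraries, although WT replicate 4 had the largest total. Genes given below with 0 counts in WT and some in KO stand beside this difference over the whole table, whose cause was not tested. Atp7b lay between 9.63 and 32.0 CPM in WT libraries and between 6.50 and 8.91 CPM in KO libraries, a log2 fold change of -1.65 ± 0.32 (SE, edgeR's quasi-likelihood test, adjusted p = 0.00313). The lowest WT level of Atp7b was in WT replicate 3. Of the 8 libraries, WT replicate 3 had the smallest total (9880253 counts, 7063771 after TMM scaling) and the fewest genes with a count (19726). The part of depth or scaling in the levels of WT replicate 3 was not tested. Leaving out that library raised the genes called over the whole table to 4267 higher and 3837 lower. Over all 15811 genes tested, 30.0% were called at an adjusted p under 0.05, 17.6% higher and 12.5% lower in KO, and the median log2 fold change was -0.05. The 8 libraries did not overlap between genotypes for 32.1% of genes.

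Hepatocyte markers were abundant in every library, and some markers of other cell types were called. The counts below stand beside 17.6% of all genes called higher and 12.5% lower. Those of hepatocytes, macrophages and endothelium, at 2 genes each, are too few to set against these shares. The summed level of 8 hepatocyte markers was 67403 to 120343 CPM in WT and 45347 to 67211 CPM in KO, with 2 of 8 called lower. All 7 tested cholangiocyte markers of 8 were higher, with sums of 31.7 to 79.2 CPM in WT and 419.8 to 1033 CPM in KO. Macrophage sums were 157 to 464 and 269.6 to 805 CPM (2 of 9 higher), and stellate cell sums were 229 to 418 and 518 to 690.4 CPM (3 of 8 higher). Endothelial sums were 121 to 203 and 69.96 to 144 CPM (2 of 8 lower). Neutrophil sums were 2.57 to 6.23 and 7.30 to 17.7 CPM (2 of 3 tested higher, Ly6g at 0 in WT), and lymphocyte sums were 2.64 to 5.65 and 6.33 to 11.8 CPM (3 of 6 tested higher). Markers of exocrine pancreas, where Slc39a5 is well known, were all at 0 in WT and summed to 0.254 to 0.597 CPM in KO, with Cpa1, Amy2a5 and Ptf1a at 0 throughout. Of 7 intestinal markers, 3 were tested, with 1 higher and 1 lower, and Cdx1, Cdx2 and Cdh17 were at 0 in WT. The part of these cell types in the results below was not tested, and in bulk liver fewer cells of a type and less RNA per cell cannot be told apart.

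Of the 10 genes, 4 rose (Mt1, Mt2, Slc39a4 and Slc30a1), 3 fell (Slc30a10, Slc39a14 and Slc39a10) and 3 were not called (Mtf1, Slc39a5 and Slc39a8). Of all genes tested, 30.0% were called. With library totals only, 5 of the 10 were higher and 1 lower, beside 4804 higher and 642 lower of all 15811 genes tested. The set was chosen with earlier results of these data known, so these counts are a description. The genotypes did not overlap for 6 of the 10, beside 32.1% of all genes tested, and the median log2 fold change of the set was 0.15 beside -0.05 for all genes.

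Mt1 and Mt2, the metal-binding proteins themselves, rose from a few CPM and joined the more abundant transcripts of the liver. Mt1 (ENSMUSG00000031765.8, mm10 chromosome 8, 94179082 to 94180327, plus strand) was at 2.46, 4.55, 6.23 and 4.33 CPM in WT replicates 1 to 4. The KO replicates 1 to 4 had 924, 678, 1142 and 427 CPM. The lowest KO library therefore lay far above the highest WT library, and KO replicate 3 was highest and KO replicate 4 lowest. By edgeR's quasi-likelihood test, the log2 fold change was 7.51 ± 0.43 (SE) with an adjusted p of 2.22e-06. By raw count, Mt1 ranked between 9182 and 11588 among all genes in WT libraries and between 73 and 237 in KO libraries.

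Mt2 (ENSMUSG00000031762.7, mm10 chromosome 8, 94172664 to 94173568, plus strand) was at 0.792, 1.72, 1.98 and 2.19 CPM in WT replicates 1 to 4. The KO replicates 1 to 4 had 735, 559.8, 1101 and 297 CPM. As for Mt1, the genotypes did not overlap, and the KO libraries stood in the same order. This was a log2 fold change of 8.63 ± 0.53 (SE; edgeR's quasi-likelihood test, adjusted p = 2.62e-06). Together the 2 genes made up 0.000309 to 0.000596% of all counts in WT libraries and 0.0819 to 0.272% in KO libraries. Among all genes tested, Mt2 ranked 48 and Mt1 ranked 90 by log2 fold change.

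**Figure D2:**
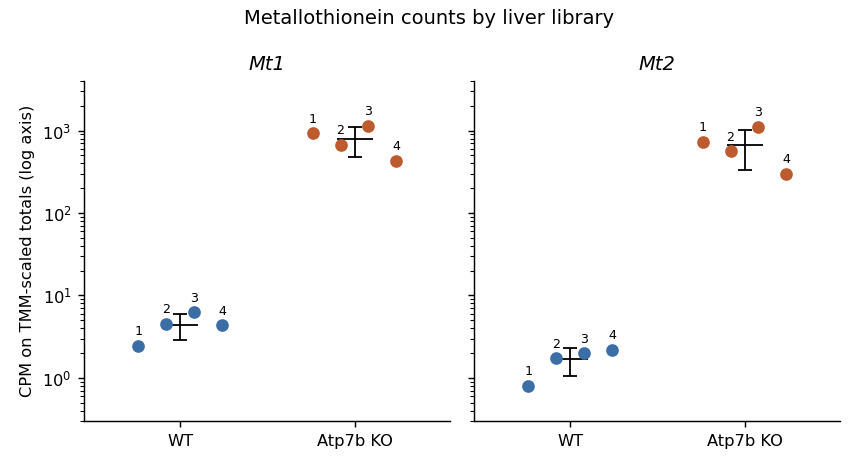
Level of Mt1 and Mt2 (CPM on TMM-scaled totals, log axis) in each of 4 WT and 4 Atp7b KO liver libraries, numbered by replicate, with bars for mean ± SD. The highest WT point is 6.23 CPM and the lowest KO point is 297 CPM.

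The reads under Mt2 could not be assigned to a strand. The antisense gene Gm45774 shares 432 exon bases with Mt2, and its counts were 9, 28, 14 and 50 in WT against 9, 28, 14 and 51 for Mt2. In KO they were 11545, 12150, 21569 and 6199 against 11580, 12187, 21679 and 6202. The antisense row thus held 98.0 to 100% of the Mt2 count in each library. Its fold change repeats that of Mt2 and is no second measurement.

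Mt1 and Mt2 changed by unequal factors. The ratio of Mt2 to Mt1 counts was 0.333, 0.383, 0.326 and 0.507 in WT replicates 1 to 4 and 0.796, 0.825, 0.965 and 0.697 in KO replicates 1 to 4. Every KO ratio exceeded every WT ratio, and Mt2 stayed below Mt1 in all 8 libraries by count. The mean log2 ratio was -1.39 ± 0.29 (SD, n = 4) in WT and -0.29 ± 0.19 (SD, n = 4) in KO. The difference of 1.10 had p = 0.0286 by a two-sided exact permutation test, which is the smallest p that 4 against 4 libraries allow, and adjusted p = 0.0429 over 3 ratios. The WT counts of Mt2 were only 9 to 51, so the WT ratios carry more counting error than those of KO.

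The metallothionein gene cluster spans 43131 bases of chromosome 8, and the genes flanking it were not called. Mt3 and Mt4, which are known from brain and from squamous epithelium, had no count in WT. Mt3 had 17 counts in all 4 KO libraries together, at least 4.21-fold higher than if the WT group together had held 3 counts. Mt4 had 15 counts in 3 KO libraries, at least 3.72-fold higher, and neither passed the filter for testing. Every KO library had more genes with a count than any WT library, so a few counts in KO are not particular to Mt3 and Mt4. Within 100 kb of Mt2 and Mt1, the protein-coding genes outside the cluster were Bbs2 and Nup93. Bbs2, a cilium gene, averaged 3.19 ± 0.485 CPM in WT and 3.37 ± 1.46 CPM in KO (SD, n = 4; edgeR's quasi-likelihood test, adjusted p = 0.885). Nup93, a nuclear pore gene, averaged 6.52 ± 3.26 and 5.76 ± 1.46 CPM (SD, n = 4; adjusted p = 0.735 by the same test).

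Mtf1 itself (ENSMUSG00000028890.13, mm10 chromosome 4, 124802104 to 124849800, plus strand) was not called. It read 28.6, 29.3, 41.8 and 26.5 CPM in WT replicates 1 to 4 and 26.4, 23.6, 24.5 and 26.8 CPM in KO. The KO libraries lay close together, and WT replicate 3 was above all others. Its log2 fold change of -0.31 ± 0.18 (SE) did not pass edgeR's quasi-likelihood test (adjusted p = 0.215) and was above 0 when only library totals were used for scaling (0.13). Its exons share 721 bases with 1110065P20Rik on the other strand, which averaged 22.9 CPM in WT and 15.6 CPM in KO.

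Of 4 other genes described in mouse studies as MTF1 targets (Csrp1, Selenow, Ndrg1 and Gclc), Csrp1 rose, Gclc fell, and 2 were not called. Of all genes tested, 17.6% were called higher and 12.5% lower, and 4 genes are too few to set against those shares. Csrp1, a LIM domain protein of the actin cytoskeleton, rose from 6.41 ± 1.21 to 41.6 ± 11.7 CPM (SD, n = 4), with no overlap between genotypes. Its log2 fold change was 2.70 ± 0.24 (SE; edgeR's quasi-likelihood test, adjusted p = 2.03e-05). Like Mt1 and Mt2, Csrp1 was highest in KO replicate 3 (59.2 CPM). Unlike them, it was lowest in KO replicate 1 (34.5 CPM) and not in KO replicate 4 (35.6 CPM). Gclc, the catalytic subunit of the enzyme that starts glutathione synthesis, went from 377 ± 108 to 227 ± 28.4 CPM (SD, n = 4; log2 fold change -0.73 ± 0.23, SE; edgeR's quasi-likelihood test, adjusted p = 0.0373). That call was lost in 12 of 18 alternative settings, including when any library but WT replicate 3 was left out, with log2 fold changes of -0.92 to -0.35. Selenow (0.31) and Ndrg1 (0.54) were not called. The median log2 fold change of the 4 was 0.43, beside -0.05 for all genes.

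The plasma membrane zinc exporter Slc30a1, a known MTF1 target, rose by a small amount that sat at the edge of the test. Slc30a1 (ENSMUSG00000037434.7, mm10 chromosome 1, 191906767 to 191913247, plus strand) was at 29.1, 34.2, 50.5 and 34.6 CPM in WT replicates 1 to 4. KO replicates 1 to 4 had 57.6, 56.2, 67.2 and 44.7 CPM. WT replicate 3 was above KO replicate 4, so the genotypes overlapped in that pair, and the highest and lowest KO libraries were the same as for Mt1 and Mt2. The rise was 1.52-fold, a log2 fold change of 0.61 ± 0.21 (SE; edgeR's quasi-likelihood test, adjusted p = 0.0465). The call was lost when any of 6 libraries was left out (adjusted p = 0.0967 to 0.134 without WT replicates 1, 2 or 4 or KO replicates 1, 2 or 3) and with RLE size factors (0.0548). Without WT replicate 3 it was 0.77 with adjusted p = 0.00111.

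Slc30a10, a manganese exporter of the liver cell's bile-facing membrane and the closest of these genes to Slc30a1, fell. Slc30a10 (ENSMUSG00000026614.6, mm10 chromosome 1, 185454848 to 185468762, plus strand) was at 106, 107, 80.0 and 67.7 CPM in WT replicates 1 to 4. KO replicates 1 to 4 had 49.2, 38.5, 18.6 and 27.5 CPM. The genotypes did not overlap, and KO replicate 3, which had the most Mt1, Mt2 and Slc30a1, had the least Slc30a10. The fall was 2.69-fold, a log2 fold change of -1.43 ± 0.29 (SE; edgeR's quasi-likelihood test, adjusted p = 0.00402). The antisense lincRNA Gm2061, which shares 533 exon bases with it, fell from 5.37 to 1.59 CPM, and reads of the pair cannot be separated by strand.

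The 2 exporters thus moved in opposite directions within the same libraries. Slc30a10 counts were 3.63, 3.12, 1.58 and 1.95 times those of Slc30a1 in WT replicates 1 to 4, and 0.854, 0.686, 0.277 and 0.615 times in KO. Slc30a10 had the larger count in every WT library and Slc30a1 in every KO library. The mean log2 ratio was 1.28 ± 0.56 (SD, n = 4) in WT and -0.83 ± 0.71 (SD, n = 4) in KO. The difference was -2.11, with p = 0.0286 by a two-sided exact permutation test, the smallest p possible, and adjusted p = 0.0429. Slc30a10 alone already separated the genotypes in these libraries, and Slc30a1 was already called higher. This p is therefore no separate support for the opposite directions.

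**Figure D3:**
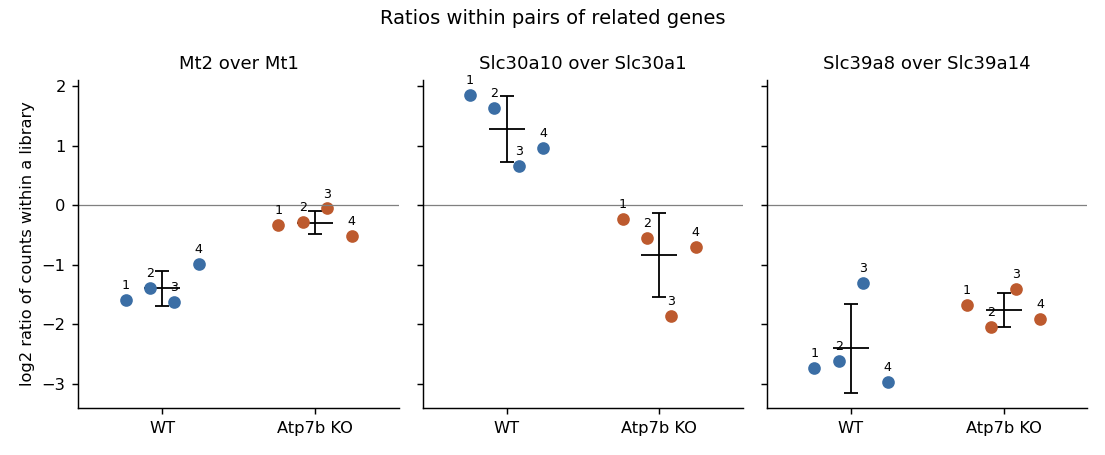
Log2 ratio of counts within each liver library for Mt2 over Mt1, Slc30a10 over Slc30a1 and Slc39a8 over Slc39a14, with points numbered by replicate and bars for mean ± SD of 4 libraries. The genotypes separate for the first and second pair and overlap for the third, where WT replicate 3 lies at -1.30.

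Among the importers, Slc39a14, which carries zinc, iron and manganese into hepatocytes and is known to respond to inflammation, fell. Slc39a14 (ENSMUSG00000022094.15, mm10 chromosome 14, 70303469 to 70351425, minus strand) was at 163, 183, 121 and 222 CPM in WT replicates 1 to 4. KO replicates 1 to 4 had 83.3, 90.3, 77.7 and 90.6 CPM. The genotypes did not overlap, and the KO libraries were close together at a coefficient of variation of 7.21%. Its level was 2.02-fold lower in KO, a log2 fold change of -1.01 ± 0.20 (SE; edgeR's quasi-likelihood test, adjusted p = 0.0032). With library totals only, the difference was -0.61 and the call was lost (adjusted p = 0.0636).

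Slc39a8, its nearest relative, which takes up manganese and zinc, was not called. Slc39a8 (ENSMUSG00000053897.15, mm10 chromosome 3, 135825279 to 135888572, plus strand) was at 24.5, 29.9, 49.3 and 28.6 CPM in WT and 26.2, 22.0, 29.5 and 24.1 CPM in KO replicates 1 to 4. The genotypes overlapped, with WT replicate 3 above all others. A log2 fold change of -0.37 ± 0.23 (SE) did not pass edgeR's quasi-likelihood test (adjusted p = 0.247), and it was 0.09 with library totals only. The log2 ratio of Slc39a8 to Slc39a14 was -2.40 ± 0.75 (SD, n = 4) in WT and -1.75 ± 0.28 (SD, n = 4) in KO. The difference of 0.65 did not pass (p = 0.171, two-sided exact permutation test, adjusted p = 0.171), while without WT replicate 3 it was 1.02 with p = 0.0286, the smallest that 3 against 4 libraries allow.

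Slc39a4, the importer that absorbs dietary zinc in the intestine and whose human gene is mutated in acrodermatitis enteropathica, rose. Slc39a4 (ENSMUSG00000063354.7, mm10 chromosome 15, 76612383 to 76617384, minus strand) was at 13.9, 40.0, 7.08 and 25.3 CPM in WT replicates 1 to 4. KO replicates 1 to 4 had 57.6, 78.0, 61.1 and 75.7 CPM. The genotypes did not overlap although the WT libraries spread over a wide range, with a coefficient of variation of 66.8% in WT and 15.1% in KO. The rise was 3.12-fold, a log2 fold change of 1.64 ± 0.42 (SE; edgeR's quasi-likelihood test, adjusted p = 0.0131), and 1.35 without WT replicate 3, the lowest WT library. The KO libraries with the most Mt1 were not those with the most Slc39a4.

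Slc39a10, a plasma membrane zinc importer that MTF1 is known to repress in mouse and zebrafish cells, fell. Slc39a10 (ENSMUSG00000025986.6, mm10 chromosome 1, 46807544 to 46892852, minus strand) was at 8.01, 7.07, 7.36 and 6.90 CPM in WT replicates 1 to 4. KO replicates 1 to 4 had 4.76, 4.91, 2.997 and 5.04 CPM. The WT libraries were tightly grouped, no KO library reached them, and KO replicate 3 lay below the other KO libraries. KO levels were 1.65-fold lower, a log2 fold change of -0.73 ± 0.21 (SE; edgeR's quasi-likelihood test, adjusted p = 0.0248). Leaving out KO replicate 3 (-0.58, adjusted p = 0.0614) or WT replicate 1 (adjusted p = 0.0548) ended the call. Library totals only (-0.31, adjusted p = 0.339), totals without the 10 most abundant genes (-0.36, adjusted p = 0.251), and upper-quartile factors or no filter (each adjusted p = 0.0535) ended it as well.

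Slc39a5, a zinc importer best known from pancreas and intestine, was barely read in either genotype and was not called. Slc39a5 (ENSMUSG00000039878.13, mm10 chromosome 10, 128395931 to 128401229, minus strand) was at 1.14, 0.922, 0.991 and 1.03 CPM in WT and 1.02, 1.79, 1.37 and 2.01 CPM in KO replicates 1 to 4. KO replicate 1 lay among the WT libraries, and the other KO libraries lay above them. Its log2 fold change of 0.61 ± 0.29 (SE) had an adjusted p of 0.138 by edgeR's quasi-likelihood test. It was called with library totals only (1.03, adjusted p = 0.0263) and with totals without the 10 most abundant genes (0.97, adjusted p = 0.0297).

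**Figure D4:**
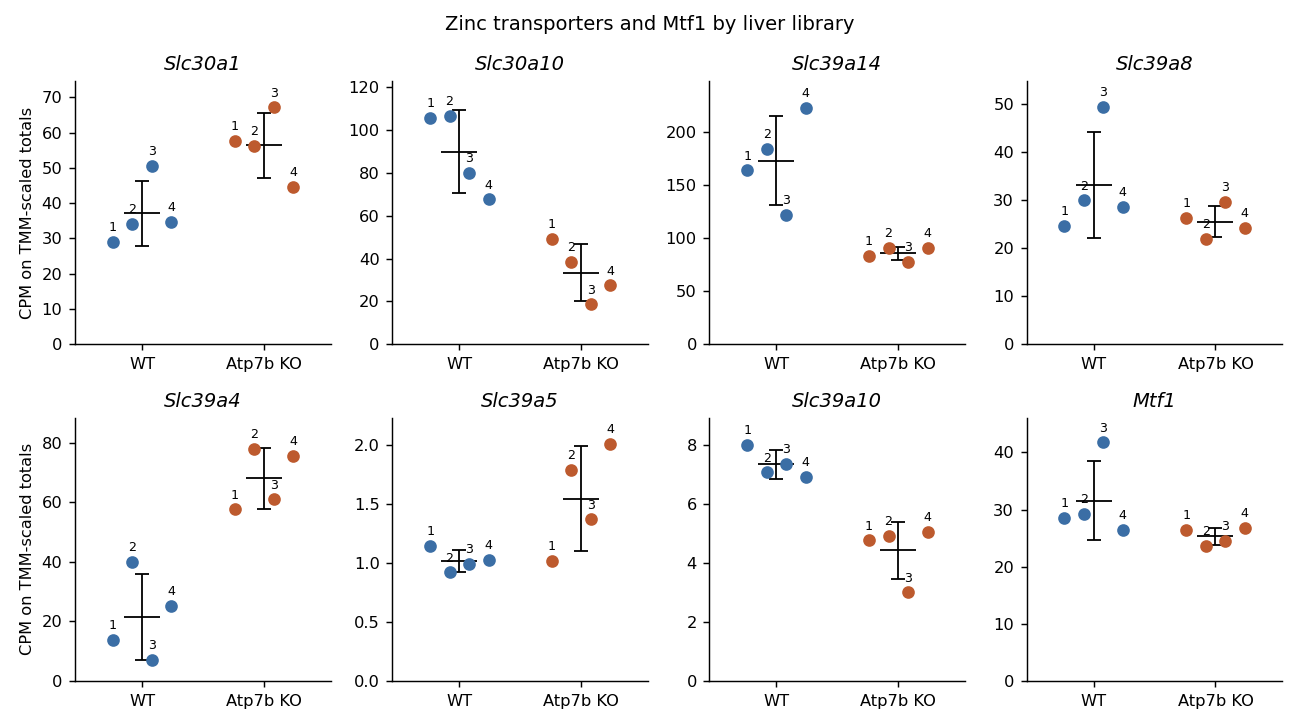
Level of the 7 zinc transporters and Mtf1 (CPM on TMM-scaled totals, linear axes from 0) in each liver library, numbered by replicate, with bars for mean ± SD of 4 libraries. WT and KO libraries separate for Slc30a10, Slc39a14, Slc39a4 and Slc39a10 and overlap for Slc30a1, Slc39a8, Slc39a5 and Mtf1.

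Set side by side per kilobase of principal transcript, the order of the 10 genes changed with genotype. All exons of Slc39a14 span 10550 bases against 4926 in that transcript, and those of Mt1 1246 against 549. Slc30a10 has 5836 by both, so order and overlaps between genes depend on the length used. In WT, Slc39a14 stood first at a level of 35.0 ± 8.51 CPM per kilobase (SD, n = 4), and its libraries did not overlap those of Slc30a10 at 15.4 ± 3.31. Slc39a8 (9.36), Mt1 (8.001), Slc39a4 (7.85) and Slc30a1 (7.08) followed, and each overlapped its neighbour in the order. Below them came Mtf1 (4.13) and Mt2 (3.27), which overlapped each other, then Slc39a10 (1.33) and Slc39a5 (0.504).

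In KO the metallothioneins stood first and overlapped each other, Mt1 at 1444 ± 562 and Mt2 at 1318 ± 659.9 CPM per kilobase (SD, n = 4). The next level, that of Slc39a4, was 24.8 ± 3.73, and those of Slc39a14 (17.4) and Slc30a1 (10.8) followed without overlap. Slc39a8 (7.20), Slc30a10 (5.73) and Mtf1 (3.32) overlapped as neighbours, and Slc39a10 (0.805) and Slc39a5 (0.765) were last. Slc39a4 thus passed from the fifth to the third level, and Slc30a10 from the second to the seventh.

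The remaining zinc transporters mostly did not pass the test. Of the other 17 Slc30 and Slc39 genes, 12 were tested. By edgeR's quasi-likelihood test, 0 were called higher and 2 lower (Slc39a1 and Slc39a2). With library totals only there were 5 higher and 0 lower, beside 4804 higher and 642 lower of all 15811 genes tested. With TMM scaling, 17.6% of all genes tested were called higher and 12.5% lower, so the share called lower among these transporters was near that of all genes. At an unadjusted p under 0.05 there were 1 higher and 2 lower, and DESeq2 and limma-voom each called 0 higher and 2 lower. The median log2 fold change of the 12 was 0.06, beside -0.05 for all genes. The 10 that were not called had log2 fold changes of -0.35 to 0.40, among them the exporters of the secretory pathway Slc30a5 (0.02), Slc30a6 (0.17) and Slc30a7 (-0.01).

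Slc39a1, a widely expressed plasma membrane importer, went from 68.1 ± 15.9 to 46.7 ± 3.85 CPM (SD, n = 4; log2 fold change -0.54 ± 0.18, SE; edgeR's quasi-likelihood test, adjusted p = 0.0464). That call was lost when any of 6 libraries was left out, WT replicates 1 or 4 or any KO replicate, and in 12 of 18 alternatives in all. Slc39a2 went from 2.20 ± 1.02 to 0.846 ± 0.239 CPM (SD, n = 4; log2 fold change -1.43 ± 0.39, SE; adjusted p = 0.0191 by the same test). It lost the call without WT replicate 2 or KO replicates 3 or 4 (adjusted p = 0.053, 0.0548 and 0.0546), and 151 of its exon bases overlap Mettl17 on the same strand. Without WT replicate 3, Slc30a9 (0.35) and Slc39a11 (0.43) were called higher. Slc30a2, Slc30a3, Slc30a8, Slc39a7 and Slc39a12 had too few counts to be tested. Of Slc39a7, 2084 exon bases overlap another gene on the same strand, Gm20427, which was at 0 CPM in both genotypes. How reads of such overlaps were counted is not known, so whether the low count of Slc39a7 measures its level cannot be told.

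**Figure D5:**
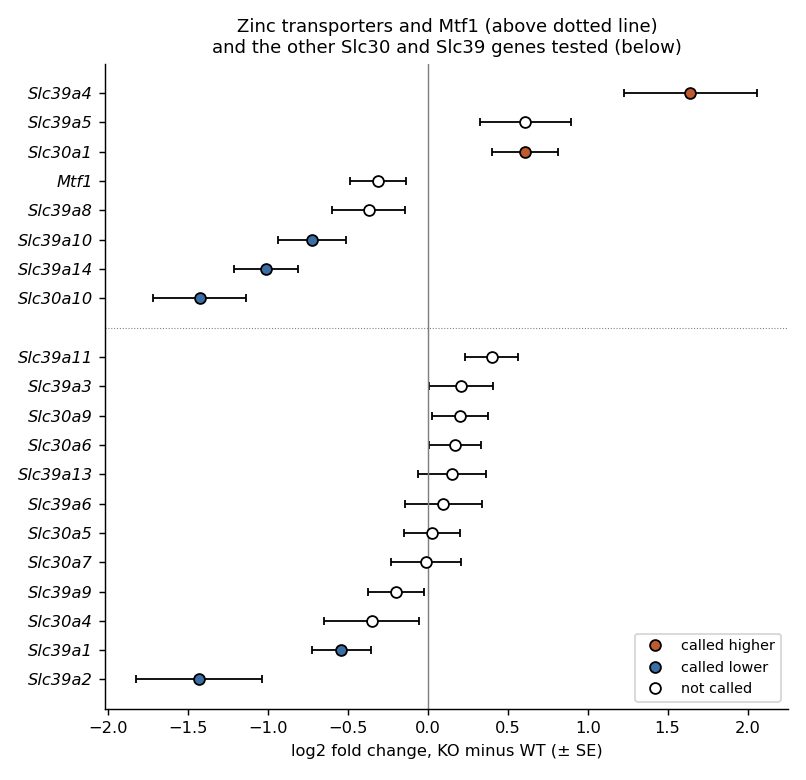
Log2 fold change (KO minus WT, ± SE) of the 7 zinc transporters and Mtf1 (above the dotted line) and of the 12 other Slc30 and Slc39 genes tested (below), filled where called at an adjusted p under 0.05 with TMM scaling. Above the line 2 are called higher and 3 lower, and below it 2 are called lower, beside 17.6% higher and 12.5% lower of all genes tested. Library totals only give 5 higher and 0 lower below the line, beside 4804 higher and 642 lower of all 15811 genes.

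By the measure used, the genes listed nearest to Mt1 over the 8 libraries were mostly unread in WT. Likeness was the root mean square difference of log2 CPM (prior count 2), each gene centred on its own mean. Genes needed a mean of at least 1 CPM over the 8 libraries, and clone and predicted-gene symbols were left out. Mep1a, a subunit of the metalloprotease meprin, was nearest at 0.426, followed by Cyp2c65 (0.44), Klrb1 (0.464), Got1l1 (0.506) and Muc13 (0.551). Mt2 itself stood at 0.568. Mep1a, Cyp2c65, Klrb1 and Muc13 had 0 counts in WT and Got1l1 had 2, and their KO means were 18.8 to 28.3 CPM. Genes at 0 in WT met the limit of 1 CPM only through KO, and the prior count sets their WT level. Their likeness to Mt1 therefore depends on the filter and the prior count.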

How the data were processed

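Liver RNA of 8 libraries was extracted with Trizol, DNase and Qiagen clean-up, per the labels' protocols. The submitters' processing notes name FastQC, cutadapt, STAR and mm10, without versions. How reads were counted, with which strand setting and annotation, is not given in the sources used here. As deposited, the values are unnormalized counts, whole numbers whose totals differ between libraries.

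Genes passing edgeR's filterByExpr (15811 of 54232) were compared with edgeR 4.0.16 (quasi-likelihood test, TMM factors, genotype only, limma 3.58.1, R 4.3.3). Benjamini-Hochberg adjustment ran over the whole set of tested genes, with calls under 0.05. The SE is the size of the log2 fold change divided by the square root of F. Ratios of related genes had 0.5 added to each count. Coordinates, exon overlaps and the longest principal transcript came from GENCODE M21, and promoters from RefSeq. The procedure was tested on simulated counts, where smaller changes were mostly not called. A gene not called is therefore not shown to be unchanged. Total counts per library were 9880253 to 27530506, and 3 counts correspond to 0.129 to 0.425 CPM, which covers counting error only.

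Replicates are numbered in order of accession, which pairs no samples. The members and gene lists were chosen with earlier results of these data known. All 10 genes, Atp7b, called genes of the lists and the 5 profiles nearest to Mt1 are named. The value of 1 marker gene is not reported here. Alternatives covered DESeq2 1.42.0, limma-voom, 4 scalings, 2 filters, a stricter threshold, a covariate for series of library numbers, and each library left out.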

Additional observations from a re-analysis of the deposited data

Results flagged for a closer look

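In KO replicate 3, Slc39a10 read 2.997 CPM against 4.76 to 5.04 CPM in the other KO libraries. It stood out because the gap to the nearest library took up 0.865 of the range of the 4 KO libraries, above Dixon's critical value for 4 samples. Levels of 10 members and Atp7b and 3 ratios were checked in each genotype, 28 groups in all, and chance flags about 1 in 20 such groups. KO replicate 3 also had the highest Mt1, Mt2 and Slc30a1 and the lowest Slc30a10 of the KO libraries, and none of these stood out by that measure.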

How the results depend on the processing

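The calls of Mt1, Mt2, Slc30a10, Csrp1 and Atp7b held in all 18 alternatives, with log2 fold changes of 7.28 to 7.96, 8.29 to 9.07, -1.68 to -1.04, 2.49 to 3.15 and -1.92 to -1.28. Against TMM, library totals only shifted the median over all genes by 0.43 (log2), totals without the 10 most abundant genes by 0.37 and upper-quartile factors by 0.12. With those first 2 scalings Mtf1 was at 0.13 and 0.0758 and Slc39a8 at 0.0916 and 0.0319, reversed but not called. Genes called higher and lower numbered 2775 and 1971, 4485 and 743 if totals omit the 10 most abundant genes, 4804 and 642 with library totals only, 3167 and 1424 with upper-quartile factors, 4244 higher with no filter, and 912 lower at an adjusted p under 0.01. Leaving out a library gave 2325 to 4267 higher and 1315 to 3837 lower, the highest of both without WT replicate 3. Of the 10 members, 2 were higher at an adjusted p under 0.01 and 1 was lower with library totals only, while leaving out a library gave 3 to 4 higher and 2 to 3 lower. Other zinc transporters gave 1 higher and 1 lower with upper-quartile factors, 3 and 0 with totals that omit the 10 most abundant genes, 5 and 0 with library totals only, 1 and 1 with no filter, 1 lower with at least 1 CPM in 4 libraries, 0 lower at an adjusted p under 0.01, 1 higher with the number series as a covariate, and 0 to 2 in either direction without 1 library. The ratio of Slc39a8 to Slc39a14 passed only without WT replicate 3 (1.02), and leaving out a library gave 0.46 to 1.02. The cause of these changes was not tested. The labels name no series, so the grouping of libraries by number into 3 series was a choice made here. Series A held WT replicate 1 with KO replicates 1 and 2, although by number WT replicate 1 lies nearer to series B. Within this grouping, each of the 10 members had 1 direction in all series, but the share over all genes is not given here. Values near 0 were counted too, such as Slc39a8 at -0.03 in series A and Mtf1 at -0.06 in series C. The series divide the same 8 libraries and are no replication. The values by series and the fit with series as a covariate depend on that choice, and other groupings were not tested. Values in series A, B and C were 0.97, 0.41 and 0.38 for Slc30a1, -0.91, -0.64 and -1.16 for Slc39a14, and 2.29, 3.11 and 1.21 for Slc39a4, and the middle value of each compares WT replicate 3 with KO replicate 3. A fit with these series as a covariate gave 0.59 for Slc30a1 (adjusted p = 0.0259) and 2.10 for Slc39a4 (adjusted p = 0.00129, edgeR's quasi-likelihood test), and the same counts of members called, 4 higher and 3 lower. No paired analysis was possible because the labels give no replicate numbers shared between genotypes. Depth limits Mt2 in WT (9 to 51 counts) and Slc39a5.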
